A study of Mus musculus with 19 samples.

Results

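The genes described here are 9 members of the chemokine axis that holds maturing leukocytes in the bone marrow or lets them leave it, taken from the deposited table by gene symbol: the receptors Cxcr1, Cxcr2, Cxcr4 and Ccr1, the ligands Cxcl12 and Cxcl5, the integrin chains Itga4 and Itgb2, and the receptor for granulocyte colony-stimulating factor (G-CSF), Csf3r. They are 9 of the 34432 genes in the table, each matched exactly 1 row, and all 9 passed the filter for testing. Polyadenylated RNA was sequenced from whole bone marrow, flushed from the long bones of the hind legs of untreated mice at the age of 8 weeks, in 19 libraries. In 4 DKO libraries the marrow came from mice with floxed Cdk8, the Vav-iCre transgene and a Cdk19 null allele. In 4 CDK8KO libraries it came from mice with floxed Cdk8 and Vav-iCre, in 4 VAV libraries from mice with Vav-iCre only, in 4 CDK19KO libraries from Cdk19 null mice, and in 3 WT libraries from C57/BL6 wild-type mice. DKO, CDK8KO and VAV mice all carried Vav-iCre, a transgene that drives Cre recombinase from the Vav promoter in blood cells, so that a floxed allele is cut in hematopoietic cells and not in most of the marrow stroma, while the Cdk19 null allele was present in every cell. CDK8 and CDK19 are paralogous kinases of the Mediator complex, which links transcription factors to RNA polymerase II.

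Neutrophils are made in the marrow and kept there in part by CXCL12, a chemokine released by stromal cells that signals through CXCR4. Ligands of CXCR2 draw neutrophils out into the blood, and G-CSF, acting through its receptor, lowers stromal CXCL12 and mobilizes them. Integrins give the grip: the α4 chain binds VCAM1 on stroma and endothelium, and the β2 chain forms the leukocyte integrins that bind ICAM molecules.

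Cxcr1 and Cxcr2 are paralogs that lie side by side on mouse chromosome 1 in opposite orientation, and they carry the largest contrast among the members, so their promoters are shown here, 250 bases before to 50 bases after the start site, 5′ to 3′, from RefSeq on GRCm38.p6. Cxcr1 is read from the minus strand of chr1:74194582-74194881 and Cxcr2 from the plus strand of chr1:74153744-74154043. Capitals mark GAGGAA, a core bound by the myeloid ETS factor PU.1, here in its reverse complement TTCCTC.
Cxcr1 promoter: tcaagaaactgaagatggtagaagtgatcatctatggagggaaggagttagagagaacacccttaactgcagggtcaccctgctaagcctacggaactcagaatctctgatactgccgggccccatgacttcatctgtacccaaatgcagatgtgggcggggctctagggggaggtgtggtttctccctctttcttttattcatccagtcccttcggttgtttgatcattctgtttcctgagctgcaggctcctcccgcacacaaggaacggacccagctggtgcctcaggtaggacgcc
Cxcr2 promoter: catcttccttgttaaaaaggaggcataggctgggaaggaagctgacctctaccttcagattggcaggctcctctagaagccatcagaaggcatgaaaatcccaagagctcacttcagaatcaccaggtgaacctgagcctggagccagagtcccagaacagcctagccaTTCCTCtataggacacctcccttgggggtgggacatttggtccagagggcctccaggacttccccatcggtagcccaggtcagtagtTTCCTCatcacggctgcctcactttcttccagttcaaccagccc
With the first base from the start site on counted as 1, the Cxcr2 window held GAGGAA on the other strand at -81 and 7, and the Cxcr1 window did not hold it on either strand. Of all 27025 promoters in the RefSeq set, 28.3% held GAGGAA on at least 1 strand, as did those of Cxcr2, Ccr1 and Csf3r among the 7 members with an entry. The C/EBP-like letters TTNNGNAA occurred in 40.7% of promoters and in those of Cxcr4 and Ccr1, where the match in Ccr1 overlapped its GAGGAA. The STAT-like letters TTCNNNGAA occurred in 8.47% of promoters and in none of the 7. The motifs were picked after the expression values were known, and a match or its absence in these windows describes the letters only. The Cxcr1 window had a GC content of 52.7%, the same as the median promoter, and that of Cxcr2 54.0%.

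The libraries held 14881701 to 33010241 reads assigned to genes, and values are given as normalized counts, the reads of a gene divided by the authors' size factor of the library. Cdk19 averaged 1173 ± 43.1 in DKO and 3668 ± 525 in VAV, and 1091 ± 62.5 in CDK19KO and 3157 ± 99.7 in WT (SD), without overlap in either comparison. Cdk8 averaged 798 ± 62.0 in DKO, 1013 ± 248.9 in CDK8KO and 994 ± 230.1 in VAV, and CDK8KO minus VAV was 0.02 ± 0.17 (SE) on the log2 scale. Reads summed over Cdk8 cannot tell whether its floxed exons were cut out, and for that genotype only the labels speak. Skeletal muscle transcripts stood apart in DKO replicate 4 and CDK19KO replicate 4, with sums of 8921 and 31557 over 16 muscle markers, against at most 518 in any other library. Markers of erythroid cells summed to 48196 to 111852 in DKO, 113405 to 968187 in CDK8KO, 41589 to 805339 in VAV, 146118 to 348237 in CDK19KO and 159899 to 259895 in WT. The marrow was not sorted, so a lower value can come from fewer cells of a type or from less RNA per cell, which cannot be told apart here. Nothing in the labels says whether the libraries of a genotype came from separate mice, so p-values measure only the spread between these libraries.

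Of the 9 members, 1 was lower in DKO than in VAV and none was higher, where 0.694% and 0.83% of the 13976 tested genes were called lower and higher (limma, Benjamini-Hochberg adjusted p under 0.05). The called member was Cxcr1. At an unadjusted p under 0.05, which 15.7% of genes reached, Cxcl5 and Csf3r joined it. The median log2 fold change of the members was -0.29, against -0.01 over all tested genes. No member was called in CDK8KO against VAV, where 0% of genes were called by limma and 8.31%, 1161 genes but no member, had an unadjusted p under 0.05. In that comparison edgeR called 0 genes and DESeq2 called 1, and neither called a member. None was called in CDK19KO against WT, where 0.0215% of genes were called, and 3.07%, Cxcr1 among them, had an unadjusted p under 0.05. None was called in VAV against WT, where 0.093% of genes were called and 14.8% had an unadjusted p under 0.05, among them Cxcr4, Itgb2 and Csf3r, all higher in VAV. The comparisons of DKO and of CDK8KO with VAV share the VAV libraries, and those of DKO with VAV, CDK8KO and CDK19KO share the DKO libraries. DKO and CDK19KO differ by Vav-iCre as well as by floxed Cdk8, and these cannot be told apart in that comparison.

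**Figure D1:**
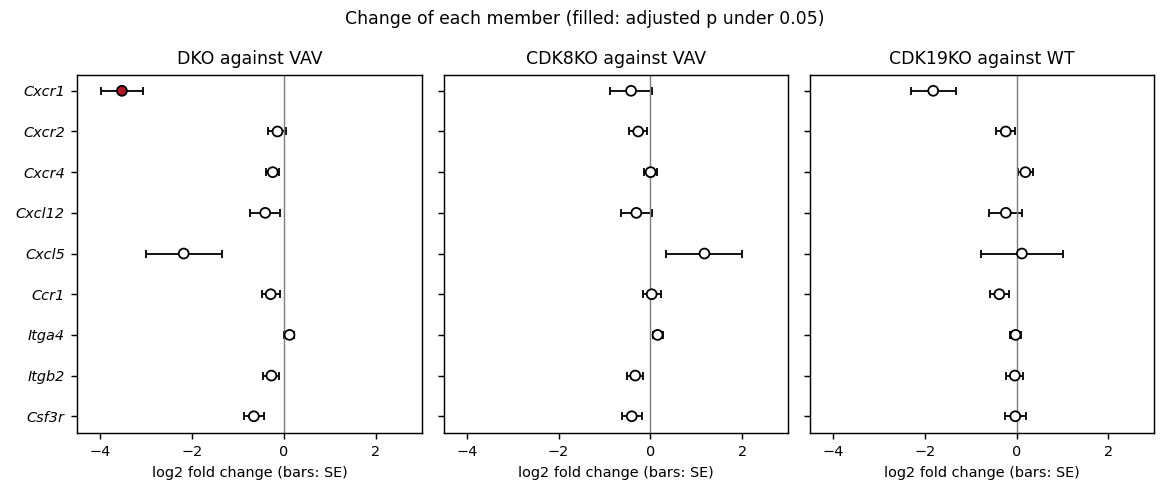
Log2 fold change of each of the 9 members (x axis) in DKO against VAV, CDK8KO against VAV and CDK19KO against WT, from limma on log2(normalized count + 1), with bars of 1 SE; a filled point passed an adjusted p of 0.05. Cxcr1 in DKO against VAV, at -3.53, is the only filled point, and Cxcl5 at -2.19 has the widest bar in that panel.

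Cxcr1 (ENSMUSG00000048480; chr1:74191785-74194631, minus strand), a receptor for CXC chemokines that attract neutrophils, was much lower in DKO marrow. It had 3.32, 1.73, 4.21 and 7.49 normalized counts in the 4 DKO libraries and 75.8, 38.6, 37.5 and 78.9 in the 4 VAV libraries. The highest DKO library was thus far below the lowest VAV library, and the groups did not overlap, as held for 4.33% of tested genes in this direction. The DKO mean of 4.19 ± 2.43 was 7.26% of the VAV mean of 57.7 ± 22.7 (SD, n = 4 each). The log2 fold change was -3.53 ± 0.45 (SE), an 11.6-fold decrease on the log2(normalized count + 1) scale (limma adjusted p = 0.0003076). It was the 12th smallest p and the 7th lowest log2 fold change among the tested genes. These values rest on few reads, 15 over the DKO libraries with 2 to 5 in each, and 275 over the VAV libraries. In each alternative fit that was run, and with each DKO or VAV library left out in turn, Cxcr1 passed the threshold, at log2 fold changes from -3.87 to -2.73.

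Across the 5 genotypes the Cxcr1 means were highest in VAV, WT and CDK8KO, whose libraries overlapped. WT was at 69.6, 43.9 and 42.2 (mean 51.9 ± 15.3), and CDK8KO at 25.0, 98.6, 21.9 and 48.2 (mean 48.4 ± 35.4). CDK19KO came next, at 12.2, 18.7, 13.1 and 11.5 (mean 13.9 ± 3.28, SD, n = 4), and DKO was the lowest. Every CDK19KO library was thus below every WT library and above every DKO library. No wide gap parted CDK19KO from CDK8KO. The highest CDK19KO library, at 18.7, held 22 reads, and the lowest CDK8KO library, at 21.9, held 20 reads. Over all their libraries CDK19KO had 56 reads and CDK8KO 186. Against WT the CDK19KO mean was 26.7%, with a log2 fold change of -1.82 ± 0.49 (SE), but the gene did not pass over all genes tested (limma unadjusted p = 0.001514, adjusted p = 0.92). In this comparison 4.04% of genes had all CDK19KO libraries below all WT libraries. CDK8KO against VAV gave -0.42 ± 0.45 (limma adjusted p = 0.775), with an interval of 2 SE from -1.33 to 0.48.

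Set against the single knockouts, Cxcr1 in DKO was 8.65% of its CDK8KO mean, or -3.11 ± 0.45 on the log2 scale (SE; limma adjusted p = 0.0009389). In DKO against CDK8KO 2 of the 9 members were called lower and none higher, where 0.651% and 1.05% of genes were called. Both, Cxcr1 and Cxcl5, had all DKO libraries below all CDK8KO libraries, as held for 3.81% of genes. The Cxcr1 call was lost when only the DKO and CDK8KO libraries entered the limma fit (adjusted p = 0.0721). Against CDK19KO the Cxcr1 mean in DKO was 30.2%, with a log2 fold change of -1.61 ± 0.45 and no overlap, as held for 7.74% of genes in this direction, and it missed the threshold (limma adjusted p = 0.0746). With array weights, which give noisy libraries less weight, it passed (limma adjusted p = 0.00819). The effect of Cdk19 loss was compared between marrow with floxed Cdk8 and Vav-iCre and wild-type marrow without the transgene. For Cxcr1 the difference between the 2 effects was -1.29 ± 0.67 (SE) and did not pass (limma adjusted p = 0.607). Of all genes 0.15% were called, and 8.64%, Cxcl5 the only member among them, had an unadjusted p under 0.05. The effect of Cdk19 loss on Cxcr1 is therefore not shown to differ between the backgrounds.

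**Figure D2:**
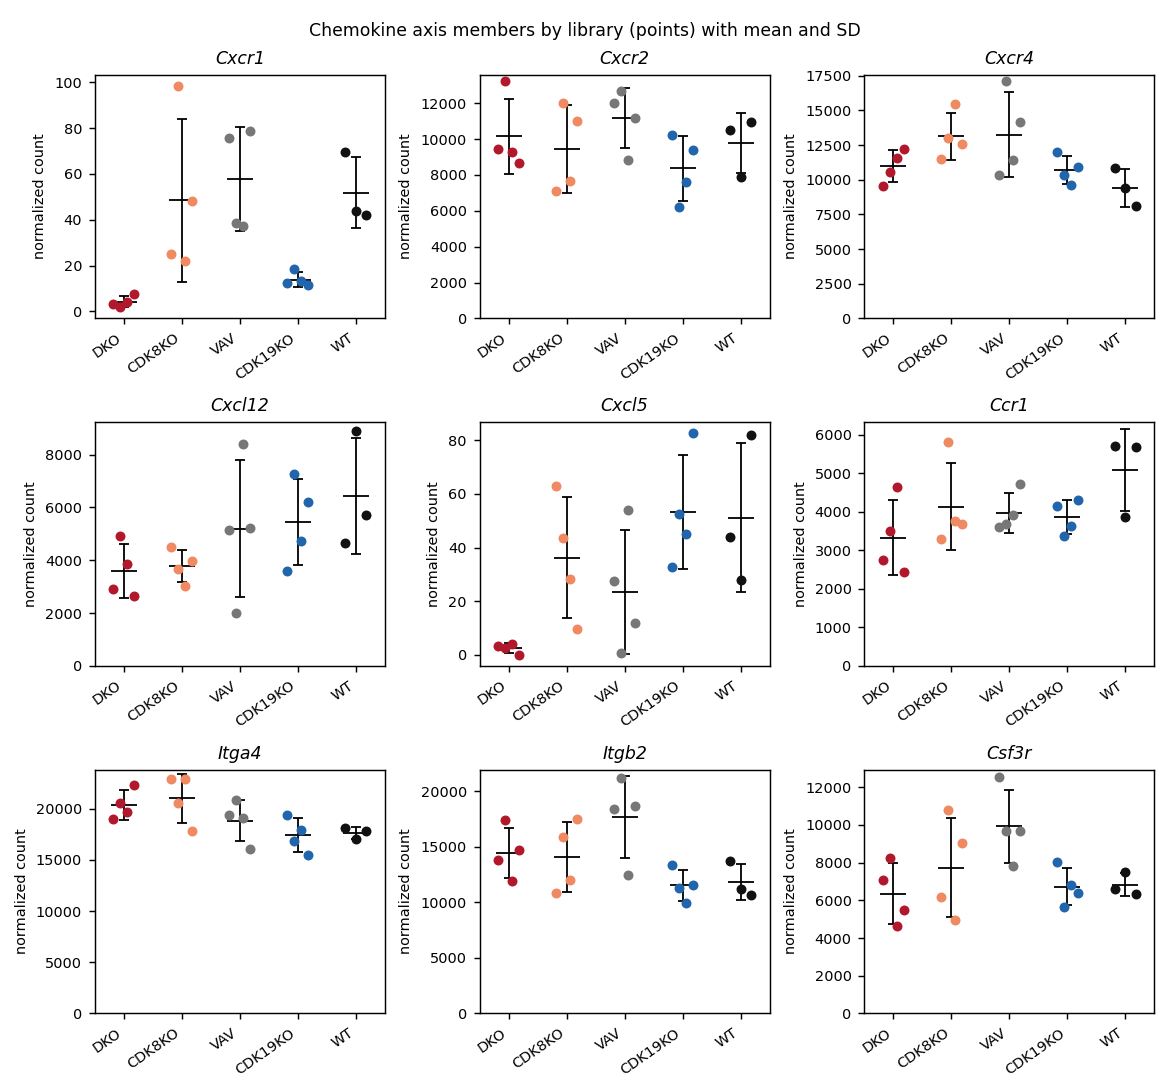
Normalized count of each member (y axis, from 0 in every panel at its own scale) in each library of DKO, CDK8KO, VAV, CDK19KO and WT, left to right; points are libraries and lines the mean with bars of 1 SD. Cxcr1 sits at 1.73 to 7.49 in DKO and 11.5 to 18.7 in CDK19KO, below the 21.9 to 98.6 of the other 3 genotypes, whereas the libraries of DKO and VAV overlap for each of the other 8 members.

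Cxcr2 (ENSMUSG00000026180; chr1:74153989-74161246, plus strand), the main receptor by which mouse neutrophils sense CXC ligands and leave the marrow, was not called in any comparison. It had 9448, 13250.1, 9284 and 8674 normalized counts in DKO and 11997, 12681, 8837 and 11193 in VAV. DKO replicate 2 was the highest of these libraries, and the groups overlapped. The log2 fold change was -0.14 ± 0.20 (SE), with an interval of 2 SE from -0.53 to 0.25 (limma adjusted p = 0.757). CDK8KO averaged 9451 ± 2429, CDK19KO 8362 ± 1795 and WT 9779 ± 1669 (SD). Per kb of exon the level of Cxcr2 averaged 3211 over all libraries and that of Cxcr1 23.0, so Cxcr1 was the minor of the paralogs in every genotype.

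The ratio of Cxcr1 to Cxcr2 within a library asks whether the paralogs changed unequally. On the log2 scale it was -11.09, -12.24, -10.80 and -9.996 in DKO and -7.29, -8.32, -7.84 and -7.13 in VAV. All DKO libraries were below all VAV libraries, by -3.39 on average (two-sided exact permutation p = 0.0286, the smallest that 4 against 4 libraries allow). After adjustment over 5 ratios in 3 comparisons, 15 tests, the value was 0.214 (exact permutation, Benjamini-Hochberg), which does not pass. A p of 0.0286 could pass this adjustment only if most of the 15 tests were as small, so the miss decides nothing. The ratio was -9.13 ± 0.60 in CDK19KO and -7.55 ± 0.39 in WT (SD), a difference of -1.58 without overlap (exact permutation p = 0.0571, adjusted 0.286). That p is the smallest that 4 against 3 libraries allow, so no ratio could pass in this comparison. In CDK8KO it was -7.80 ± 0.64, against -7.65 ± 0.54 in VAV, and these overlapped. How reads that fit both paralogs were assigned is not given in the sources used here, and its part in the Cxcr1 counts was not tested.

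**Figure D3:**
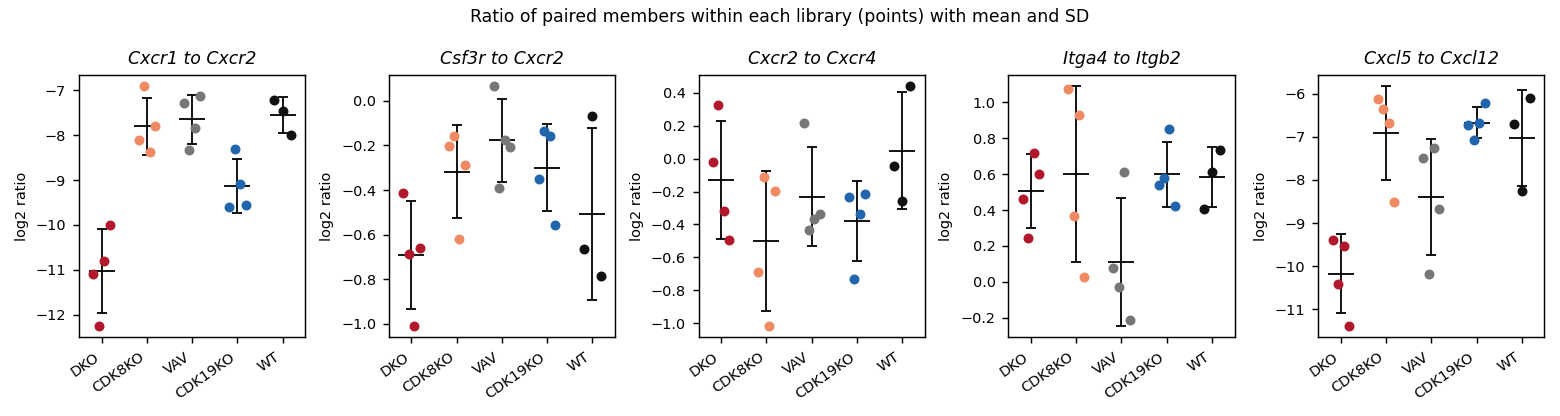
Log2 ratio of 2 members within each library (y axis), for the 5 ratios tested, in DKO, CDK8KO, VAV, CDK19KO and WT from left to right; points are libraries and lines group means with bars of 1 SD. Cxcr1 to Cxcr2 lies between -12.24 and -9.996 in DKO, below all other libraries, and Csf3r to Cxcr2 is lower in every DKO library than in any VAV library.

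None of the other tested genes around Cxcr1 was called. Within 100 kb, Tns1, Rufy4, Cxcr2, Arpc2, Aamp, Pnkd and Tmbim1 were tested in DKO against VAV. The nearest gene beyond the start of Cxcr1, Arpc2, an actin nucleation subunit, averaged 14889.9 ± 1426 in DKO and 15999 ± 2739 in VAV (log2 fold change -0.09, limma adjusted p = 0.81). Rufy4 averaged 40.3 ± 10.8 in DKO and 77.4 ± 19.02 in VAV, or -0.93 ± 0.29 (SE) on the log2 scale, which did not pass (limma adjusted p = 0.131).

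The genes whose levels followed Cxcr1 most closely over the 19 libraries were Asprv1, an aspartic protease (r = 0.896), Cdk19 itself (r = 0.847) and Fcnb, the myeloid lectin ficolin B (r = 0.847). All 3 were lower in DKO than in VAV: Asprv1 averaged 28.4 ± 9.36 in DKO and 965 ± 265 in VAV, and Fcnb 760.3 ± 230.3 in DKO and 5765 ± 1857 in VAV (limma adjusted p = 5.48e-08 and 8.28e-07). In CDK19KO and WT the Asprv1 means were 362 and 682. The 3 genes were picked for following Cxcr1 over these same libraries. Their lower DKO values follow in part from that choice and give no separate support. These correlations describe libraries that share genotype, depth and cell makeup; taken as deviations from each genotype's mean they were 0.364, 0.338 and 0.235. The likeness was thus lower within genotypes than across them, and the part of the few Cxcr1 reads in this was not tested.

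Cxcr4 (ENSMUSG00000045382; chr1:128588199-128592293, minus strand), the CXCL12 receptor that retains neutrophils and progenitors, was not called in any comparison. It had 9583, 10582, 11598 and 12230.2 normalized counts in DKO and 10326, 17137, 11416 and 14137 in VAV. The groups overlapped, with VAV replicate 2 the highest library of all 19. The log2 fold change was -0.25 ± 0.15 (SE; limma adjusted p = 0.42), with an interval of 2 SE from -0.54 to 0.05. CDK8KO averaged 13127 ± 1677, against 13254 ± 3045 in VAV, and CDK19KO 10713 ± 996, against 9432 ± 1374 in WT (SD). VAV against WT gave 0.47 ± 0.16 (SE; limma adjusted p = 0.194), which passed with array weights (limma adjusted p = 0.039). Per kb of exon Cxcr4 had the highest level of the 9 members, 6424 on average, and it stood above Cxcr2 in every genotype. The log2 ratio of Cxcr2 to Cxcr4, release against retention, was -0.13 ± 0.36 in DKO and -0.23 ± 0.30 in VAV, and the groups overlapped (difference 0.10, exact permutation p = 0.714, adjusted 0.796).

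Ccr1 (ENSMUSG00000025804; chr9:123962124-123968692, minus strand), a receptor for inflammatory CC chemokines on neutrophils and monocytes, averaged 3330 ± 971 in DKO and 3978 ± 517 in VAV (SD, n = 4 each). DKO ranged from 2449 to 4629 and VAV from 3610.2 to 4730.3, with overlap, and the log2 fold change was -0.29 ± 0.20 (SE; limma adjusted p = 0.491). The mean was 4134 ± 1133 in CDK8KO, 3866 ± 446 in CDK19KO and 5076 ± 1059 in WT. The gene most like it over the 19 libraries was Arg2, a mitochondrial arginase (r = 0.872).

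Among the 24 listed chemokine receptor genes, 19 were tested in DKO against VAV and Cxcr1 was the only one called. The tested receptors had 8 higher and 11 lower estimates, with a median log2 fold change of -0.06, against -0.01 over all tested genes. The next smallest p-values were on the higher side. Ccr9, a receptor of the gut-homing ligand CCL25 on lymphoid cells, averaged 724 ± 303 in DKO and 289.6 ± 19.8 in VAV (log2 fold change 1.18 ± 0.31, limma adjusted p = 0.0665). DKO replicate 1, at 283, lay inside the VAV range of 272 to 311. Of 16 T and NK cell markers 14 had higher estimates in DKO (median 0.81 on the log2 scale), and they summed to 1642 to 5243 in DKO and 1762 to 2692 in VAV. Their part in the Ccr9 value was not tested. Ccr3, the eosinophil receptor for eotaxins, averaged 1011 ± 583 in DKO and 480.7 ± 130 in VAV (0.94 ± 0.27, limma adjusted p = 0.104). Eosinophil and basophil markers, a list that includes Ccr3, were called higher for 8 of 16 in DKO, and their summed level ran from 15051 to 29560 in DKO and 7759 to 13115 in VAV; their part in the Ccr3 value was not tested. In DKO against CDK19KO, which differ by Vav-iCre too, Ccr9 was called higher (log2 fold change 1.37, limma adjusted p = 0.025).

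**Figure D4:**
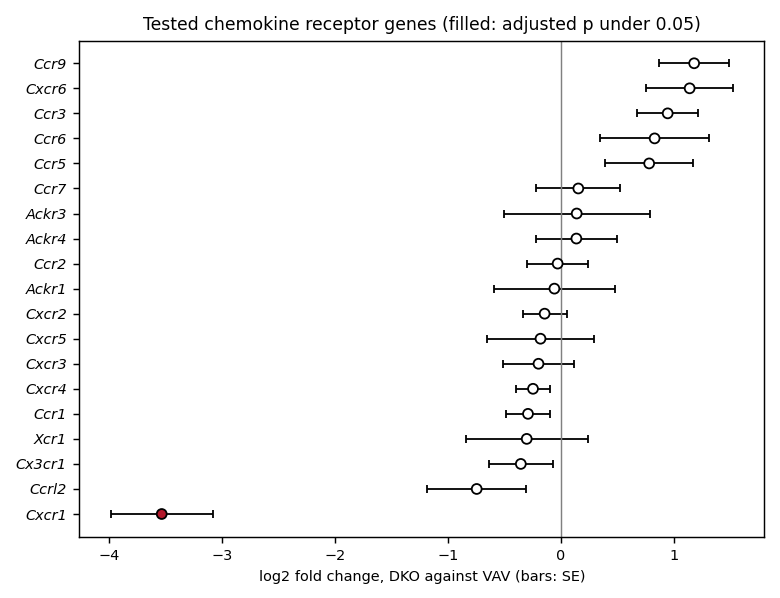
Log2 fold change in DKO against VAV (x axis) of the 19 chemokine receptor genes tested, ordered by value, with bars of 1 SE; a filled point passed an adjusted p of 0.05. Cxcr1 at -3.53 is the only filled point, and the other receptors lie between -0.75 and 1.18.

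Cxcl12 (ENSMUSG00000061353; chr6:117168535-117181367, plus strand), the stromal ligand of Cxcr4, was variable and was called in no comparison. It had 2913, 4905, 3854 and 2659 normalized counts in DKO and 5151, 2022, 8399 and 5236 in VAV. VAV held both the lowest and the highest of these libraries, so the DKO range lay inside that of VAV. The log2 fold change was -0.41 ± 0.33 (SE), with an interval of 2 SE from -1.08 to 0.25 (limma adjusted p = 0.575). CDK8KO averaged 3782 ± 617, CDK19KO 5443 ± 1625 and WT 6420.5 ± 2200.2 (SD). The genes most like Cxcl12 over the 19 libraries were Pappa, a metalloproteinase of the insulin-like growth factor system (r = 0.944), Ogn, a matrix proteoglycan (r = 0.904), and Gas6, a ligand of TAM receptors (r = 0.895). As deviations from genotype means the values were 0.95, 0.872 and 0.898, so the likeness held between libraries of the same genotype.

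The other genes listed for the marrow niche were likewise not called in DKO against VAV. All 20 genes listed as stromal or endothelial, Cxcl12 included, were tested, with 6 higher and 14 lower estimates and a median log2 fold change of -0.27. Lepr, which marks Cxcl12-abundant stromal cells, averaged 437 ± 85.2 in DKO and 579 ± 259 in VAV, and Kitl, stem cell factor, 298 ± 92.2 in DKO and 464 ± 194 in VAV. Fn1, fibronectin, averaged 11052 ± 3287 in DKO and 24554 ± 8118 in VAV and missed the threshold (log2 fold change -1.13 ± 0.29, limma adjusted p = 0.0567). In VAV replicates 2 and 3 Fn1 had 32083 and 15336 normalized counts, where Cxcl12 had 2022 and 8399. Which cells of the unsorted marrow gave the Fn1 reads was not tested. Against CDK8KO, where Fn1 averaged 26035 ± 9248, Fn1 was called lower in DKO (-1.19, limma adjusted p = 0.0406), and Cdh5, endothelial cadherin, was called higher (0.98, limma adjusted p = 0.0342).

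Cxcl5 (ENSMUSG00000029371; chr5:90759360-90761624, plus strand), a ligand of Cxcr2 that attracts neutrophils, was low in all 4 DKO libraries. It had 3.32, 2.60, 4.21 and 0 normalized counts in DKO, 63.0, 43.7, 28.5 and 9.80 in CDK8KO, 27.6, 0.729, 54.0 and 11.7 in VAV, 32.9, 52.7, 45.0 and 82.6 in CDK19KO, and 43.8, 27.9 and 81.8 in WT. Every DKO library was below every library of the other genotypes except VAV replicate 2, which held 1 read. The value of 0 in DKO replicate 4 allows up to 4.496 normalized counts at its depth, an upper limit of 3 reads that covers counting error only. In all, Cxcl5 had 11 reads in DKO and 108 in VAV.

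Against VAV the log2 fold change of Cxcl5 was -2.19 ± 0.83 (SE), and it did not pass (limma adjusted p = 0.21). Without VAV replicate 2 it was -3.18 and passed (limma adjusted p = 0.0274), and DESeq2 on the recovered reads also called it (-3.14, adjusted p = 0.0108). Against CDK8KO the DKO mean of 2.53 ± 1.81 was 6.99% of 36.2 ± 22.6, with a log2 fold change of -3.36 ± 0.83 and no overlap (limma adjusted p = 0.0439). That call was lost with any 1 DKO library or any 1 of CDK8KO replicates 1 to 3 left out, at limma adjusted p-values of 0.0657 to 0.1465, and under 5 other settings. Against CDK19KO, where 1 of 9 members was called lower and none higher against 0.658% and 1.34% of genes, it was -4.10 ± 0.83 without overlap, and the DKO mean was 4.75% of the CDK19KO mean of 53.3 ± 21.2 (limma adjusted p = 0.0138). Without CDK19KO replicate 4 the limma adjusted p was 0.0502, and without both libraries rich in muscle transcripts it was 0.124. DKO and CDK19KO differ by Vav-iCre too, and Cxcl5 in VAV against WT was at -1.80 ± 0.89 (SE; limma adjusted p = 0.356). CDK19KO and WT overlapped, with means of 53.3 ± 21.2 and 51.2 ± 27.7, and the difference between the 2 effects of Cdk19 loss was -3.48 ± 1.22 (SE; limma adjusted p = 0.431).

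Cxcl5 lies next to Ppbp and Pf4 on chromosome 5, which encode the platelet chemokines CXCL7 and CXCL4. Ppbp had 1336, 3096, 890 and 2179 normalized counts in DKO and 15944, 2224, 17841 and 6250 in VAV, and VAV replicate 2 again overlapped the DKO libraries. Its log2 fold change was -2.24 ± 0.62 (SE; limma adjusted p = 0.0904), and that of Pf4 was -0.91 ± 0.52 (limma adjusted p = 0.404). All 12 megakaryocyte and platelet markers, which include both genes, had lower estimates in DKO and none was called, with a median of -1.28. In CDK8KO against VAV all 12 markers had lower estimates too, with a median of -0.61, and none was called. Their summed level was 3524 to 7255 in DKO and 4519 to 33477 in VAV, with VAV replicate 2 at 4519. It was 5669 to 21792 in CDK8KO (median 6526), 6833 to 31771 in CDK19KO and 12710 to 16681 in WT. Cxcl5 averaged 36.2 in CDK8KO, above its VAV mean of 23.5. The part of these markers in the Cxcl5 values was not tested. The list of 6 CXC ligands that attract neutrophils had 3 tested genes, Ppbp, Cxcl5 and Cxcl2, all with lower estimates and none called. Of the other 28 chemokine ligands, Cxcl12 included, 14 were tested and none was called, the smallest p being that of Cxcl16, at 49.7 ± 14.4 in DKO and 20.8 ± 8.53 in VAV (log2 fold change 1.25 ± 0.34, limma adjusted p = 0.081). Cxcl16 and Ccl3, a ligand of Ccr1, were called higher in DKO against CDK8KO (1.42 and 1.28, limma adjusted p = 0.0386 and 0.0226) and against CDK19KO (1.41 and 1.31, limma adjusted p = 0.0365 and 0.0175).

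**Figure D5:**
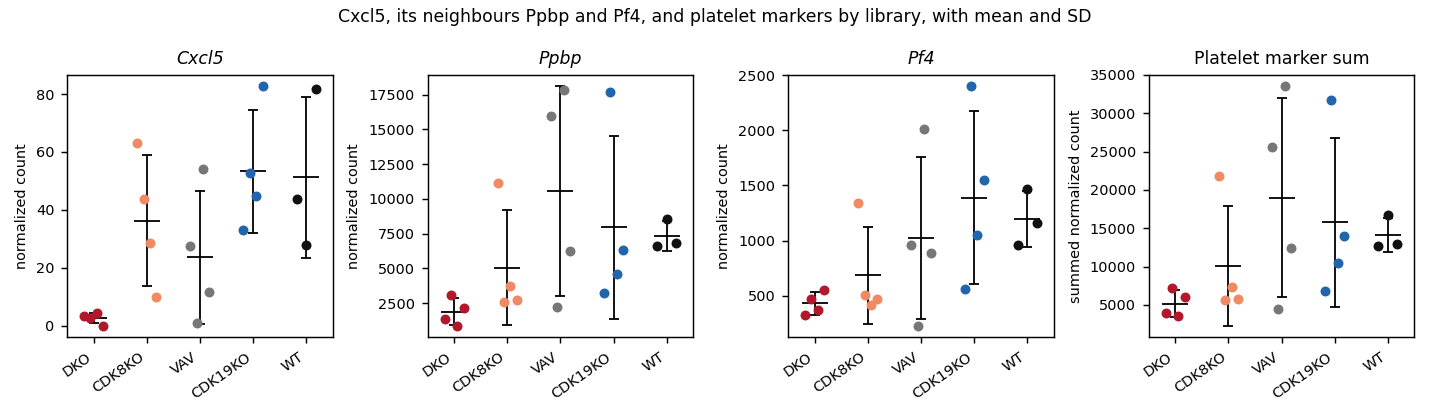
Normalized count of Cxcl5, of its neighbours Ppbp and Pf4, and of 12 platelet markers summed (y axes), by library in DKO, CDK8KO, VAV, CDK19KO and WT from left to right, with mean and bars of 1 SD. The DKO libraries are low in all 4 panels, but they overlap those of CDK8KO in each panel except that of Cxcl5. The lowest VAV point in each panel is VAV replicate 2.

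Within a library the ratio of Cxcl5 to Cxcl12 showed no difference that passed. On the log2 scale it averaged -10.18 ± 0.92 in DKO and -8.40 ± 1.35 in VAV (SD), with overlap (difference -1.78, exact permutation p = 0.0857, adjusted 0.321). CDK8KO averaged -6.92 ± 1.09 against the same VAV libraries (exact permutation p = 0.143, adjusted 0.357), and CDK19KO -6.67 ± 0.36, against -7.02 ± 1.11 in WT. The genes most like Cxcl5 over the 19 libraries were Lgalsl (r = 0.898), Scml2 (r = 0.88) and Tbc1d12 (r = 0.877).

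Neither integrin chain was called in any comparison. Itga4 (ENSMUSG00000027009; chr2:79255426-79333123, plus strand), the α4 chain that binds VCAM1, had 18994, 20594, 19679 and 22347 normalized counts in DKO and 19367, 20855, 19123 and 16079 in VAV. The groups overlapped and the log2 fold change was 0.12 ± 0.11 (SE), with an interval of 2 SE from -0.10 to 0.34 (limma adjusted p = 0.634). CDK8KO averaged 21041 ± 2394, CDK19KO 17414 ± 1651 and WT 17655 ± 563. Itgb2 (ENSMUSG00000000290; chr10:77530252-77565708, plus strand), the common β2 chain of leukocyte integrins, had 13787, 17397, 11966 and 14738 in DKO and 18385, 21235, 12509 and 18642 in VAV. DKO was lower on average with overlap, at -0.28 ± 0.17 (SE; limma adjusted p = 0.456). VAV against WT, at 17693 ± 3688 and 11852 ± 1612, gave 0.56 ± 0.19 and did not pass (limma adjusted p = 0.194), but it passed without VAV replicate 3 (limma adjusted p = 0.0396) and with array weights (limma adjusted p = 0.033).

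The log2 ratio of Itga4 to Itgb2 was 0.51 ± 0.20 in DKO and 0.11 ± 0.35 in VAV, and the groups overlapped (difference 0.39, exact permutation p = 0.114, adjusted 0.343). Of 23 integrin, adhesion and selectin ligand genes tested, none was called in DKO against VAV, with a median log2 fold change of -0.03. Itgb1, the partner chain of Itga4, averaged 6203 ± 562 in DKO and 5665 ± 421 in VAV, and Itgam, a partner chain of Itgb2, 20844 ± 3025 in DKO and 18975 ± 4260.1 in VAV. Against CDK19KO, where Vav-iCre differs too, Itgam was called higher in DKO (0.71, limma adjusted p = 0.039) and Itgad lower (-0.80, limma adjusted p = 0.0276). In VAV against WT the log2 fold change was 0.70 for Itgam and -0.33 for Itgad, and neither was called. Itgb2 followed Selplg, the P-selectin ligand, with r = 0.97 over the 19 libraries, and Cd177, a neutrophil surface protein, with r = 0.958. Among the genes ranked for likeness, Itga4 followed none above r = 0.806, that of Casp2.

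Csf3r (ENSMUSG00000028859; chr4:126024550-126044440, plus strand), the receptor through which G-CSF drives neutrophil production and release, was lower on average in DKO but was not called. It had 7084, 8244, 4618 and 5496 normalized counts in DKO and 12540.2, 9678, 7828 and 9697 in VAV. Only DKO replicate 2 was above the lowest VAV library. The DKO mean of 6361 ± 1618 was 64.0% of the VAV mean of 9936 ± 1945 (SD, n = 4 each), or -0.66 ± 0.22 on the log2 scale (SE; limma unadjusted p = 0.00682, adjusted p = 0.151). CDK8KO averaged 7739 ± 2639, CDK19KO 6725 ± 992 and WT 6825 ± 603, so VAV had the highest mean. All 4 VAV libraries were above all 3 WT libraries, as held for 6.93% of tested genes in this direction, with a log2 fold change of 0.53 ± 0.23 (limma adjusted p = 0.304). In VAV against WT 20 of 23 late neutrophil markers had higher estimates (median 0.43), as had 11 of 11 early granulocyte markers (median 0.29). So had 22 of 23 integrin and selectin ligand genes, a list that includes Itgb2 and Itga4 (median 0.31). None of these genes was called, and the median over all tested genes was -0.007. The part of these lists in the Csf3r, Itgb2 and Cxcr4 values of VAV against WT was not tested.

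The log2 ratio of Csf3r to Cxcr2 averaged -0.69 ± 0.24 in DKO and -0.18 ± 0.19 in VAV (SD), without overlap. The difference of -0.51 had a two-sided exact permutation p of 0.0286, the smallest possible, and 0.214 after adjustment over the 15 ratio tests. As for Cxcr1 to Cxcr2, that adjusted value decides nothing. In CDK8KO the ratio was -0.32 ± 0.21, overlapping VAV (exact permutation p = 0.429, adjusted 0.584), and in CDK19KO -0.30 ± 0.20, overlapping WT at -0.51 ± 0.38. None of the 19 tested genes of G-CSF receptor signalling, Csf3r included, was called in DKO against VAV, and 15 of them had lower estimates, with a median of -0.14. Stat5b, a transcription factor below the receptor, had the smallest p, at 2667 ± 316 in DKO and 3489.8 ± 352 in VAV (log2 fold change -0.39 ± 0.11, limma adjusted p = 0.089). Over the 19 libraries Csf3r was most like Tnfrsf23 (r = 0.936), Mcur1 (r = 0.928) and Fhl3 (r = 0.883).

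Downstream of the chemokine receptors, 1 of 26 tested signalling genes was called in DKO against VAV. Grk3, a kinase that phosphorylates and desensitizes activated receptors including CXCR4, had 1419, 1327, 886 and 1481 normalized counts in DKO and 890.1, 799, 647 and 654 in VAV. DKO replicate 3 lay just below the highest VAV library and the other 3 DKO libraries above all VAV libraries (log2 fold change 0.76 ± 0.17, limma adjusted p = 0.0307). Rgs1, which shortens signals of G proteins, averaged 188 ± 71.3 in DKO and 76.3 ± 27.7 in VAV and did not pass (1.28 ± 0.33, limma adjusted p = 0.0568). The arrestin gene Arrb2 and Grk3 were called higher against CDK8KO (0.56 and 0.85, limma adjusted p = 0.0225 and 0.0169). Of 9 protease genes whose products can cut CXCL12, CXCR4 or adhesion molecules, Mmp8, the neutrophil collagenase, was called lower, at 15659 ± 3329 in DKO and 32379 ± 8145 in VAV (log2 fold change -1.04 ± 0.20, limma adjusted p = 0.0116). Mmp9, a gelatinase of neutrophil granules, averaged 21850 ± 3846 in DKO and 32534 ± 7161 in VAV (-0.56 ± 0.17, limma adjusted p = 0.132).

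Cell type markers moved with these results to different extents. Of 23 late neutrophil markers, 4 were called lower in DKO against VAV, Mmp8, Camp, Fpr1 and Il1b, and 20 had lower estimates, with a median log2 fold change of -0.34. Their summed level was 929765 to 1245250.0 in DKO and 1040400.0 to 1714540.0 in VAV, where the libraries overlap, and 795056 to 1084460.0 in CDK19KO and 945098 to 1185660.0 in WT. Ly6g, which defines mouse neutrophils, ran from 1883 to 3492 in DKO and from 2764 to 4451 in VAV, with overlap. Retnlg, a marker of mature neutrophils, ran from 19362 to 25887 in DKO and from 30608 to 37638 in VAV, without overlap. The part of these markers in the Cxcr1, Cxcl5, Csf3r and Mmp8 values was not tested. Of 11 early granulocyte markers none was called, with a median of -0.19. Of 20 monocyte and macrophage markers Cd163 alone was called lower, at 67.0 ± 12.2 in DKO and 550.4 ± 117 in VAV (limma adjusted p = 6.48e-08), and their median was -0.02. Of the 16 T and NK cell markers, 14 of them with higher estimates, Cd8a was called higher and Ncr1 lower. None of 16 B cell, 28 erythroid, 16 muscle and 12 tested stem and progenitor markers was called in DKO against VAV, where 27 of the 28 erythroid markers had lower estimates and their median was -0.51. Of the erythroid markers 28 had lower estimates in DKO against CDK8KO (median -1.45, 1 called) and 27 in DKO against CDK19KO (median -1.29, 1 called). Their part in the member values of these comparisons was not tested. All 16 muscle markers had higher estimates in DKO, where replicate 4 is the library with the high sum.

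The members did not all vary together. Over the 19 libraries, as deviations from genotype means, the closest pairs were Cxcr2 with Itgb2 (r = 0.761), Cxcr2 with Csf3r (r = 0.715), Itgb2 with Csf3r (r = 0.688) and Cxcl12 with Cxcl5 (r = 0.673). Cxcr4 ran against both ligands, with r = -0.613 for Cxcl12 and -0.685 for Cxcl5. Cxcr1 followed none of the others closely, the highest value being 0.361 with Itgb2. It had 2 to 5 reads in each DKO library and 10 to 22 in each CDK19KO library. The part of counting error in its low correlations was not tested. All these correlations are descriptions over libraries that share scaling and cell makeup. Per kb of exon, the levels over all libraries were 6424 for Cxcr4, 4599 for Itgb2, 3211 for Cxcr2, 2093 for Csf3r, 1420.4 for Ccr1, 1370 for Itga4, 588 for Cxcl12, 23.0 for Cxcr1 and 17.4 for Cxcl5. Ccr1 and Itga4 are neighbours within their spread, as are Cxcr1 and Cxcl5.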

How the data were processed

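RNA-seq of mouse bone marrow was analysed in 19 libraries, grouped by genotype from the labels. The values are a signal of gene counts divided by 1 size factor per library, as deposited by the authors. The submitters' processing notes name Salmon 1.4.0, DESeq2 and the build mm10, with no role or order; strand use and the assignment of reads shared by paralogs are not given in the sources used here. In every library 100% of values were whole reads within 0.001 read once divided by the library's step. Depth was 14881701 to 33010241 reads, which limits genes of a few reads such as Cxcr1 and Cxcl5; a count of 0 allows 3 reads.

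Genes with a mean of at least 10 were tested, 13976 of 34432, with limma 3.58.1 in R 4.3.3 on log2(normalized count + 1), all 5 genotypes in 1 fit, and Benjamini-Hochberg adjustment within each of 7 comparisons at 0.05. Ratios of members were compared with two-sided exact permutation tests. The limma fit was tested on simulated data, and the outcome is not given here. Alternatives were pseudocounts of 0.5 and 5, no filter on low values, edgeR 4.0.16 and DESeq2 1.42.0 on the recovered reads, only the groups compared, a replicate block, TMM scaling, array weights, and libraries left out. Gene coordinates and exon lengths are from GENCODE vM21 on GRCm38 by ID, and promoters from RefSeq on GRCm38.p6, where 7 of 9 members matched.

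The members, gene lists and tests were chosen with earlier results of these data known. Named were all members, the called genes of each list or else up to 3 with the smallest p in DKO against VAV, and for each member the 3 genes of highest Pearson r over the 19 libraries (mean of at least 50, no sex-linked genes). Other genes named in the text, such as Lepr, Itgb1, Itgam, Ly6g, Retnlg and the chromosomal neighbours, were picked after their values were seen.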

Additional observations from a re-analysis of the deposited data

Results flagged for a closer look

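Cxcr2 in DKO replicate 2, at 13250.1 normalized counts, stood apart from the other 3 DKO libraries at 9448, 9284 and 8674. Its gap to the nearest of them, as a share of the range of the 4 libraries, was just over the Dixon critical value for 4 libraries. In 36 groups of 4 libraries examined, 1 was picked out in this way, and chance alone gives about 1 in 20. With each DKO library left out in turn, Cxcr2 was not called in DKO against VAV.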

How the results depend on the processing

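Of 1179 log2 fold changes of members recomputed under other settings or with a library left out, 1102 kept their direction and their side of the threshold, 21 kept the direction and changed side, and 56 changed sign. Of 175 recomputed ratios 151 kept both, 18 kept the direction and changed side, and 6 changed sign. The log2 fold change of Cxcr1 in DKO against VAV passed each time it was recomputed. The depth of Cxcr1, 15 reads in DKO, limits how far its fold change can be measured.

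The number of genes called differed between settings. In DKO against VAV, with 213 in limma, DESeq2 called 504, the fit of only the groups compared 99, and the fit without the 2 libraries rich in muscle transcripts 102. DESeq2 called 2 members there, Cxcr1 and Cxcl5. In CDK8KO against VAV, with 0, DESeq2 called 1 and the fit of only the groups compared 1. In CDK19KO against WT, with 3, no filter gave 6, DESeq2 15, array weights 7, and leaving out the muscle-rich libraries 1. In VAV against WT, with 13, DESeq2 gave 321, only the groups compared 3, array weights 640 and leaving out the muscle-rich libraries 7. In DKO against CDK8KO, with 238, these 4 settings gave 711, 31, 106 and 92, and in DKO against CDK19KO, with 279, they gave 601, 968, 1251 and 97. For the difference between the effects of Cdk19 loss, with 21, DESeq2 gave 98, array weights 34 and leaving out the muscle-rich libraries 11. The cause of these changes was not tested.

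With 1 library left out at a time, the counts ran from 107 to 226 in DKO against VAV, with 1 to 2 members called, from 0 to 1 in CDK8KO against VAV, from 1 to 2 in CDK19KO against WT, from 3 to 416 in VAV against WT, from 105 to 422 in DKO against CDK8KO, from 119 to 227 in DKO against CDK19KO and from 10 to 21 for the difference. In DKO against VAV the count fell by more than 1.5 times without DKO replicate 3 (107) or 4 (116) and without VAV replicate 1 (125) or 2 (136). In DKO against CDK8KO it did so without DKO replicates 2 (119), 3 (139) or 4 (105) or CDK8KO replicate 1 (123), and it was 422 without CDK8KO replicate 4. In DKO against CDK19KO it did so without DKO replicate 2 (124) or CDK19KO replicates 2 (119), 3 (132) or 4 (129). In VAV against WT the 416 came without VAV replicate 3, and any other library left out gave 3 to 8. With a library left out of 4 against 4, no ratio can pass an exact permutation test, whose smallest p is then 0.0571.

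Whether replicate numbers pair the samples is not settled here. Of 36 same-numbered pairs, 6 had deviations correlated above 0.1, in a range of -0.274 to 0.306. Among unlike-numbered pairs, CDK8KO replicate 1 reached 0.559 with VAV replicate 3 and -0.437 with VAV replicate 2. Correlations of that size without a shared number mean that these values cannot decide the question. With the replicate block 196 genes were called in DKO against VAV, 0 in CDK8KO against VAV, 1 in CDK19KO against WT, 18 in VAV against WT, 204 in DKO against CDK8KO, 263 in DKO against CDK19KO and 14 for the difference, and Cxcr1 kept its call in DKO against VAV (limma adjusted p = 0.00133).

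Signs changed only for log2 fold changes and ratios that had not passed. In CDK8KO against VAV, Cxcr4 was -0.0052 in edgeR, -0.011 in DESeq2 and -0.0067 with array weights. In CDK19KO against WT, Cxcl5 was -0.12 without the muscle-rich libraries, and Itga4 0.016 with the block and 0.031 without those libraries. Cxcr1 in VAV against WT was -0.013 with the block. Without the muscle-rich libraries Cxcl12 was 0.023 in DKO against CDK8KO and Cxcr4 -0.0072 in DKO against CDK19KO. Ccr1 for the difference was -0.0068 with array weights.

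Leaving out 1 library changed the sign of the following. In CDK8KO against VAV, Ccr1 ran from -0.15 to 0.13 and Cxcr4 from -0.11 to 0.14. In CDK19KO against WT, Csf3r ran from -0.12 to 0.0504, Cxcl12 from -0.44 to 0.026, Cxcl5 from -0.24 to 0.51, Itga4 from -0.077 to 0.031 and Itgb2 from -0.11 to 0.069. In VAV against WT, Cxcr1 ran from -0.075 to 0.33. In DKO against CDK8KO, Cxcl12 ran from -0.27 to 0.023, Cxcr2 from -0.014 to 0.25, Itga4 from -0.12 to 0.0032 and Itgb2 from -0.062 to 0.17. In DKO against CDK19KO, Csf3r ran from -0.24 to 0.038 and Cxcr4 from -0.017 to 0.10. For the difference, Ccr1 ran from -0.12 to 0.24, Cxcl12 from -0.13 to 0.33, Itga4 from -0.092 to 0.037 and Itgb2 from -0.023 to 0.21. Among ratios, Cxcl5 to Cxcl12 ran from -0.27 to 0.81 and Itga4 to Itgb2 from -0.074 to 0.092 in CDK19KO against WT, Cxcr1 to Cxcr2 from -0.45 to 0.039 in CDK8KO against VAV, and Cxcr2 to Cxcr4 from -0.048 to 0.25 in DKO against VAV.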
